A study of Mus musculus with 8 samples.

Results

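The proteasome genes examined here were the 50 genes, of 14709 listed in either of the 2 FPKM tables of the series, whose symbol begins with Psma, Psmb, Psmc, Psmd, Psme, Psmf or Psmg followed by a number. All 50 were listed for the sorted cells, among 13056 genes, and 49 for the overexpression, among 14319, where Psmb11 was not listed. Psmc3ip meets the name rule but encodes a cofactor of meiotic recombination and no part of the proteasome, so it was counted and kept in a class of its own. FPKM is a count of sequenced fragments scaled by transcript length and library size, and each value below is the authors' mean of 2 replicates. The replicates themselves were not used here, so no difference has a replicate error or a test, and the depth behind each value is unknown.

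The proteasome is the main protease for ubiquitin-tagged proteins in the cytosol and nucleus. Its 20S core is a stack of alpha and beta rings with the catalytic beta subunits inside, and the 19S cap binds, unfolds and feeds in the substrate. Alternative catalytic subunits give the immunoproteasome, which is known for antigen processing, other activators such as PA28 and PA200 can replace the 19S cap, and dedicated chaperones assemble the rings. In these cells the stability of KLF3, a Kruppel-like transcription factor, was a question of the study. The RNA data give transcript levels and not proteasome activity.

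In the first experiment, 500 cells per sample were sorted as KLF3-GFP-positive or KLF3-GFP-negative from mESCs of the cross C57BL/6(F) x 129/sv(M) and sequenced by Smart-seq2, a protocol for few cells. Both sorted groups carried the same reporter, in which the part of KLF3 that precedes the DNA-binding domain is fused to Emerald GFP under the CAGGS promoter, with DsRed from the EF1α promoter as a marker of expression. In the second, codon-optimised Klf3 (KLF3-OE-72h) or GFP (GFP-OE-72h) was induced with doxycycline for 72 hours in an mESC line with M2rtTA at Rosa26, and poly(A) RNA was sequenced, so the control carried the transactivator and a transgene too. Both lines came from drug-selected colonies that were picked, those of the overexpression after selection on feeder cells, and all samples carry the same cross label. KLF3 and GFP were inserted in separately picked clones, so transgene and clone cannot be told apart in the overexpression. The Klf3 entry does not check these labels, since the sorted groups were separated by fluorescence of the fusion protein and the overexpression transgene has other codons. In the sorted cells, reads from the KLF3 part of the reporter could also count for Klf3, which was not tested. Klf3 measured 107 and 122 FPKM in KLF3-GFP-negative and KLF3-GFP-positive cells and 58.7 and 47.8 FPKM in GFP-OE-72h and KLF3-OE-72h cells.

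The mESC markers Pou5f1, Sox2, Nanog and Zfp42 were present in all 4 conditions, with a summed level of 410 and 185 FPKM in KLF3-GFP-negative and KLF3-GFP-positive cells and of 1590.2 and 1362 FPKM in GFP-OE-72h and KLF3-OE-72h cells. All 4 were lower in KLF3-GFP-positive cells (median difference of log2(FPKM + 1) -1.46), beside 48.1% of all genes. In KLF3-OE-72h cells 3 of 4 were lower (median -0.71), beside 59.4% of all genes. Nanog went from 255 to 103 FPKM there, while Pou5f1, which makes up most of the sum, went from 883 to 990 FPKM. All 6 primitive endoderm markers (Gata4, Gata6, Sox17, Pdgfra, Dab2 and Sox7) were higher by more than 2-fold in both experiments. Of all genes, 13.8% were in the sorted cells and 6.6% in the overexpression. The sum of these markers was 6.82 against 345 FPKM in the sorted cells and 13.8 against 71.8 FPKM in the overexpression. Their part in the differences below was not tested, and in bulk RNA fewer cells of a type and less RNA per cell cannot be told apart. Of 8 fibroblast and feeder markers, 3 were listed for the sorted cells, with a sum of 0.68 and 2.07 FPKM, and 4 for the overexpression, with a sum of 4.05 and 5.08 FPKM. The columns of the sorted cells summed to similar totals, 904629 and 947917 FPKM, whereas those of the overexpression summed to 612621 and 834882 FPKM, so a scaling of the overexpression columns to equal sums lowered its log2 differences by up to the log2 of that ratio, 0.45.

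Differences are given as log2(FPKM + 1) of the compared condition minus its control, a scale that understates changes of low genes, for genes whose 2 columns averaged 1 FPKM or more. These were 48 members of 9212 genes in the sorted cells and 48 members of 11179 genes in the overexpression, since Psmb8 lay below the minimum in both and Psmb11 in the sorted cells. As deposited, the proteasome genes were lower in KLF3-GFP-positive cells, with 40 of 48 members below 0 against 48.1% of all genes and 8 above 0 against 51.7%. Their median difference was -0.34, while that of all genes was 0.03. In KLF3-OE-72h cells they were higher, with 41 of 48 members above 0 against 40.5% of all genes and 7 below 0 against 59.4%, and with a median of 0.47 where all genes had -0.18.

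The summed level of the 50 members went from 13403 to 10473 FPKM between KLF3-GFP-negative and KLF3-GFP-positive cells, or from 1.48% to 1.10% of the column, and that of the 49 members from 6016 to 8994 FPKM between GFP-OE-72h and KLF3-OE-72h cells, or from 0.982% to 1.08% of the column. With the overexpression columns scaled to equal sums, 24 members lay above 0 and 24 below, where 22.5% of all genes lay above and 77.5% below, with a median of 0.03 beside -0.56 for all genes, so the members stayed above the median of all genes while the direction of many of them rested on the scaling. In the sorted cells the same scaling gave 41 members below 0 and a median of -0.41.

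**Figure D1:**
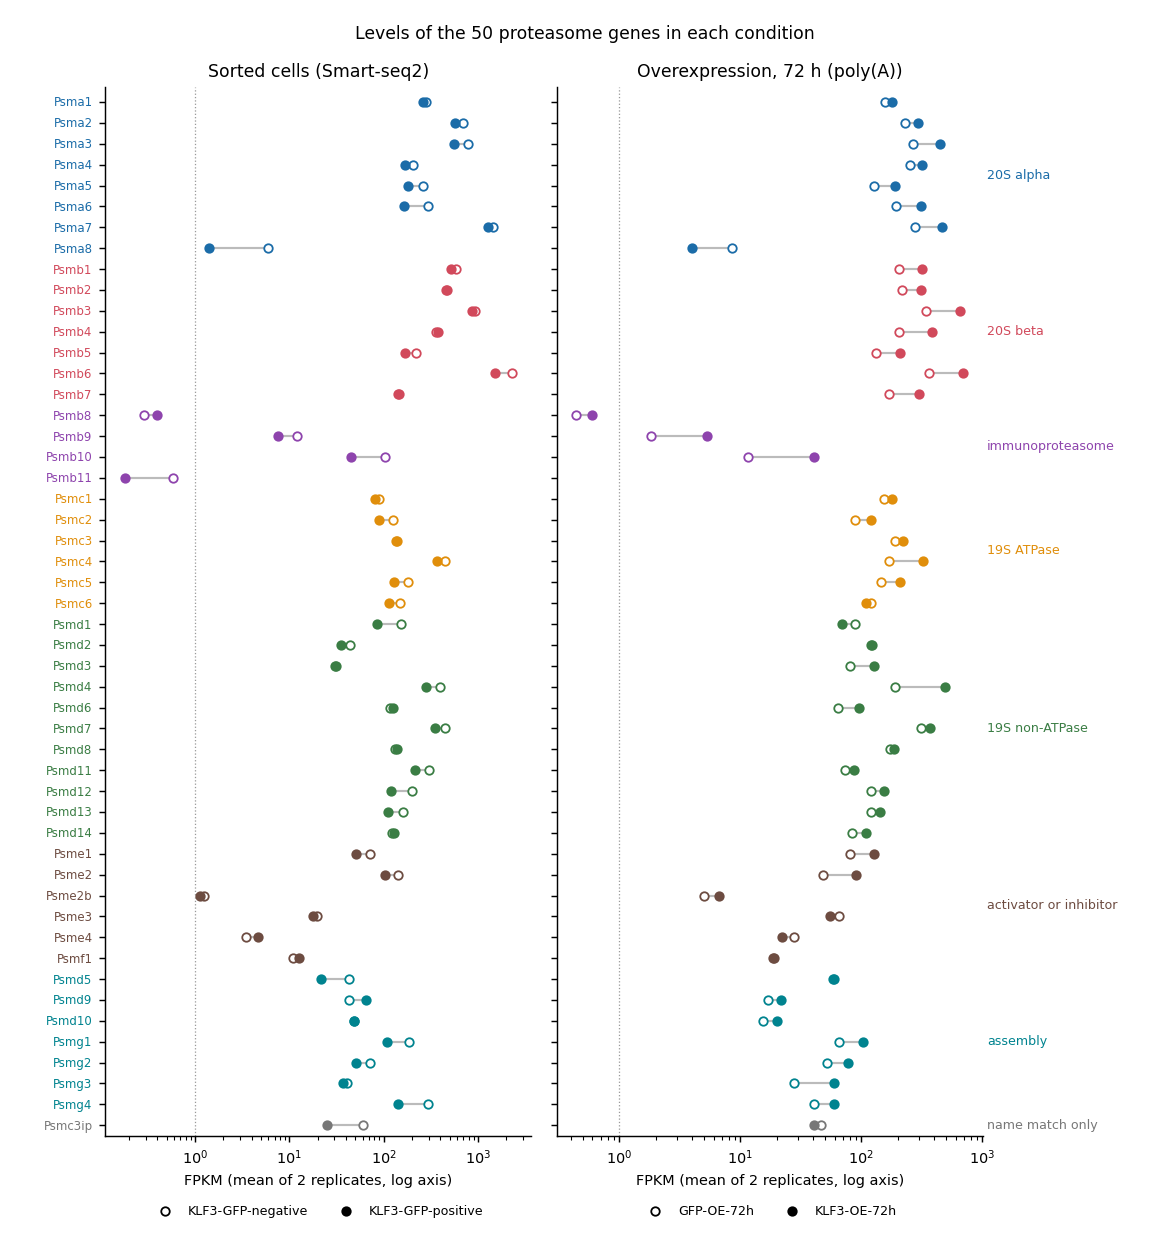
Level of each of the 50 proteasome genes in FPKM (log axis, authors' mean of 2 replicates) in the sorted cells (left) and the overexpression (right), coloured by group; open points are the controls, filled points the KLF3-GFP-positive or KLF3-OE-72h cells, and the dotted line marks 1 FPKM. Most filled points lie left of the open ones at left and right of them at right, and Psma8, Psmb8, Psmb9, Psmb11, Psme2b and Psme4 lie far below the ring subunits.

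The folds were modest. In the sorted cells no member was higher by more than 2-fold, against 13.8% of all genes, and 1 was higher by more than 1.5-fold, against 24.3%. Lower by more than 2-fold were 4 members (Psma8, Psmb10, Psmc3ip and Psmg4), a share of the 48 close to the 8.32% of all genes, and 11 were lower by more than 1.5-fold where 18.1% of all genes were. In the overexpression 4 members (Psmb10, Psmb9, Psmd4 and Psmg3) were higher by more than 2-fold beside 6.6% of all genes, and 18 were higher by more than 1.5-fold beside 15.8%. None was lower by more than 2-fold, against 10.1% of all genes, and 1, Psma8, was lower by more than 1.5-fold, against 27.2%.

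Level moved with the overexpression result. Of the members, 29 lay in the top 10% of genes by mean level, and there the median was 0.54 for the members and 0.50 for all 1118 genes. Higher by more than 1.5-fold in that range were 13 of the 29 members and 44.2% of all its genes, while 28 of the 29 were above 0 beside 75.5% of all. In the sorted cells 30 members lay in the top 10%, with a median of -0.37 beside -0.04 for the 922 genes of that range, and 25 of the 30 were below 0 beside 53.4% of those genes. In that top range the median of the members thus lay below that of all genes in the sorted cells and close to it in the overexpression. Further down in the overexpression the members lay above all genes of like level, with 0.55 for 11 members beside 0.16 in the next 10% of level, 0.71 for 2 members beside -0.08 in the one after that, and 0.34 for 3 members beside -0.18 in the following one. The part of level in the differences was not tested further. The ribosomal protein genes, which are also high, gave a median of -0.23 in the sorted cells and 0.83 in the overexpression over 83 genes, and their share of the column went from 30.3% to 26.0% and from 28.8% to 38.7%.

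**Figure D2:**
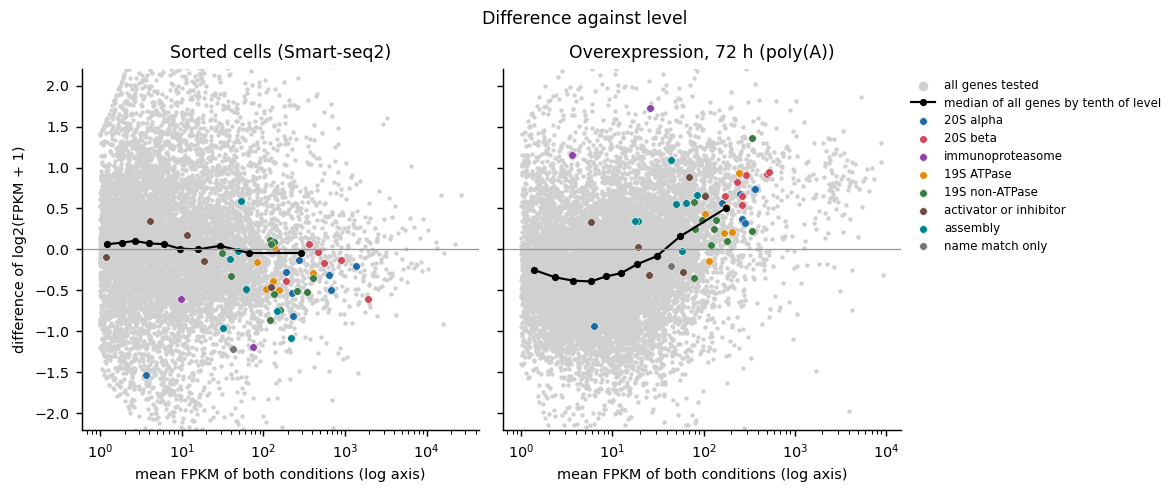
Difference of log2(FPKM + 1) against mean FPKM (log axis) for all genes tested (grey), with the median of all genes in 10 equal bins of level (black line, at the median level of each bin) and the proteasome genes coloured by group; 336 genes at left and 76 at right lie outside the plotted range. At left the members sit mostly below a flat line, and at right they scatter about the line in the top bin, where it reaches 0.50, and lie mostly above it in the 3 bins before.

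Genomic span moved with the overexpression result too. Short genes had the higher differences, with a Spearman's rho of -0.40 between span and difference both over the 48 members and over all 11179 genes, and 34 of the members were shorter than the median gene of 21.7 kb. In the shortest 20% of genes the medians were 0.65 for 15 members and 0.35 for all genes, and in the longest 20%, 0.02 for 4 members and -0.49 for all genes. With the trend on span removed, 43 of 48 members were above 0, beside 49.3% of all genes. In the sorted cells rho was 0.04 over the members. These correlations run across genes, which share the libraries and are no replicates, and the part of span in the differences was not tested.

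The upstream sequences of 4 members are shown because these genes gave large differences in their groups. In the overexpression Psmd4 had the highest 19S difference and Psmb6 the highest of the constitutive 20S subunits. Psmg4 had the lowest difference of the assembly factors in the sorted cells, and Psmd9 the highest there. The 250 bases before the transcription start are printed 5′ to 3′ on the strand of the gene (RefSeq, GRCm38.p6), and capitals mark matches, on either strand, to any of the motifs searched: TGANNNNGC, which resembles the antioxidant response element bound by the proteasome regulator Nfe2l1; its strict form TGACTCAGC, contained in the former; CCAAT; CCNCACCC, the CACCC box known for Kruppel-like factors; CCGGAAG, the core site of ETS factors; and TATAAA. The windows lie at chr3:95042615-95042864 on the minus strand for Psmd4, and on the plus strand at chr11:70525107-70525356 for Psmb6, chr13:34162714-34162963 for Psmg4 and chr5:123227940-123228189 for Psmd9.
Psmd4: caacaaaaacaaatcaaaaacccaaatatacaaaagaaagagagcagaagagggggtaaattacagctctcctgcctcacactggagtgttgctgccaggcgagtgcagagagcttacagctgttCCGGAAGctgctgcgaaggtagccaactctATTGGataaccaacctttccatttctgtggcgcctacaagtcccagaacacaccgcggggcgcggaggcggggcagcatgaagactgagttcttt
Psmb6: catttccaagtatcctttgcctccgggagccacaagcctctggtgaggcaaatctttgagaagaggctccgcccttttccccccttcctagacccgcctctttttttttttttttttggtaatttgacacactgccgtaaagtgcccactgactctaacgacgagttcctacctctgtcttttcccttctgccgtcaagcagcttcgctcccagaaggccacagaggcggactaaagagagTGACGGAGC
Psmg4: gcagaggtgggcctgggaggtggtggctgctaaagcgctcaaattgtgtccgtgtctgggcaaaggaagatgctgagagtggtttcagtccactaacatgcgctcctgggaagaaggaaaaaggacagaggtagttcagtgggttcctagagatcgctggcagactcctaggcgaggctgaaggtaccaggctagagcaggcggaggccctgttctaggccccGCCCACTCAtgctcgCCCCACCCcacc
Psmd9: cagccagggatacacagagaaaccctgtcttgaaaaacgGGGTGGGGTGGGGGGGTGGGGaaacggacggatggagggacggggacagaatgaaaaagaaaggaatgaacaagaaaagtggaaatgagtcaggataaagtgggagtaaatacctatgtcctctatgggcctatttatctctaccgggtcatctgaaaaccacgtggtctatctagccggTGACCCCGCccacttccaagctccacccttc
Psmd4 holds an ETS match and a CCAAT match, Psmb6 a TGANNNNGC match directly before the start, Psmg4 a TGANNNNGC and a CACCC match within 30 bases of the start, and Psmd9 3 CACCC matches and a TGANNNNGC match.

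Promoter windows of 300 bases, 250 before and 50 after the start, were matched for 42 of the 50 members, which have 45 windows among 32851. TGANNNNGC occurred in 57.8% of the member windows and in 41.3% of all windows, and TGACTCAGC in none of the 45 and 0.454% of all. CCGGAAG occurred in 35.6% of the member windows and 8.86% of all, CCAAT in 33.3% and 37.4%, CCNCACCC in 11.1% and 16.6%, and TATAAA in 8.89% and 13.6%. These are matches of letters and not sites of binding. No promoter was matched for Psma8, Psmb1, Psmb2, Psmb7, Psmc3, Psmd3, Psmd7 and Psmg2.

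The 20S alpha subunits form the outer rings of the core and gate its entry. All 8 were below 0 in the sorted cells, beside 48.1% of all genes, with a median of -0.40. In the overexpression 7 of 8 were above 0 as deposited, beside 40.5% of all genes. In the top 10% of genes by level, which held all but Psma8, these shares were 53.4% and 75.5%. The overexpression median of the group, 0.47, fell to 0.04 under quantile normalization and to 0.03 under equal sums. Psma6 had the lowest sorted difference of the 14 constitutive 20S subunits, which leave out Psma8, at 292 FPKM without and 166 FPKM with KLF3-GFP, a difference of -0.81. In the overexpression the same gene measured 192 and 309 FPKM, a difference of 0.68. Psma6 thus had opposite directions in the experiments, and kept both under each scaling.

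Psma7, the most abundant alpha subunit, measured 1457 and 1263 FPKM in the sorted cells, a difference of -0.21, and 278 and 463 FPKM in the overexpression, the highest of the group at 0.74. Psma3 measured 790 and 561 FPKM in the sorted cells (-0.49), and 268 and 446 FPKM in the overexpression (0.73). Psma1 had the smallest of the group's sorted differences, -0.13 from 285 to 260 FPKM, and 0.20 from 157 to 180 FPKM in the overexpression, where it was below 0 under quantile normalization (-0.17) and under equal sums (-0.25).

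Psma8 went against the rest of its group. It encodes an alpha subunit known from the testis that takes the place of Psma7 in the spermatoproteasome, and it was low in all conditions. Its level was 5.94 FPKM without and 1.41 FPKM with KLF3-GFP, a difference of -1.53, and 8.53 FPKM in GFP-OE-72h and 3.98 FPKM in KLF3-OE-72h cells, a difference of -0.94. It was thus lower with KLF3 in both experiments, with the lowest difference among the tested members of each. Relative to Psma7 it went from 0.408% to 0.112% in the sorted cells and from 3.07% to 0.859% in the overexpression, ratios that no scaling of whole columns changes.

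**Figure D3:**
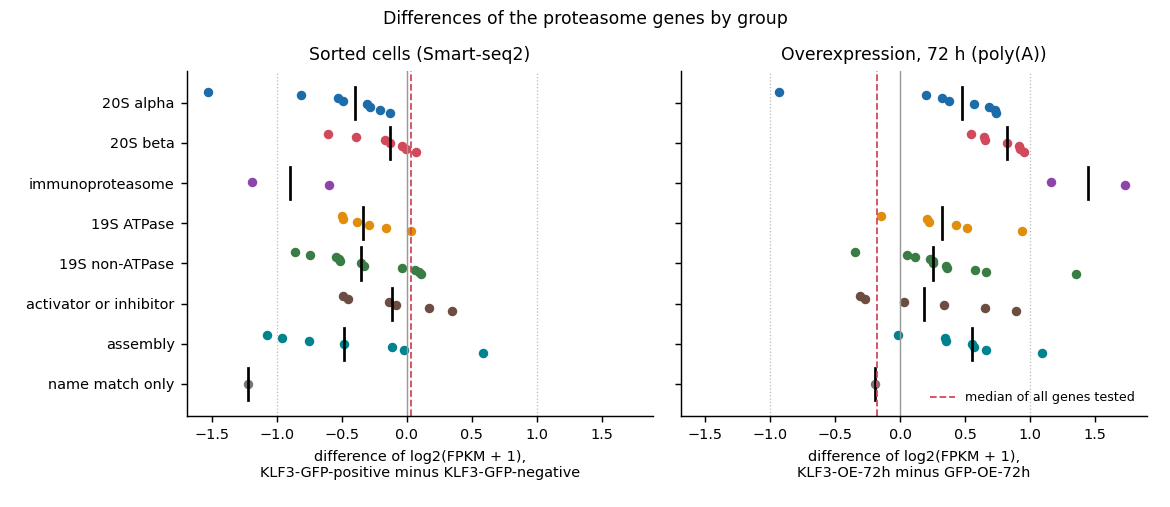
Difference of log2(FPKM + 1) of each tested proteasome gene (points) by group, with the group median (black bar), the median of all genes tested (dashed line) and 2-fold limits (dotted lines), for the sorted cells (left) and the overexpression (right). The 20S beta and immunoproteasome points at right all lie above 0, with medians of 0.82 and 1.44, and the alpha point far to the left in each panel is Psma8.

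The 7 constitutive 20S beta subunits include the 3 proteases of the core. Of the 7, 6 were below 0 in the sorted cells, beside 48.1% of all genes, with a median of only -0.13. In the overexpression 7 of 7 were above 0, beside 40.5% of all genes, with a median of 0.82. In the top 10% of genes by level, where all 7 lay, these shares were 53.4% and 75.5%. All 7 also stayed above 0 in the overexpression under median-ratio scaling, quantile normalization (median 0.37) and equal sums (median 0.38). As deposited, 6 of the 7 were higher by more than 1.5-fold there, beside 15.8% of all genes and 44.2% of those in the top 10% of level. None was under equal sums and quantile normalization, where 6.94% and 18.2% of all genes were.

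Psmb6, the caspase-like protease, was the most abundant member in every condition, at 2289 and 1502 FPKM in KLF3-GFP-negative and KLF3-GFP-positive cells and 361 and 697 FPKM in GFP-OE-72h and KLF3-OE-72h cells. Among the constitutive beta subunits it had the lowest difference of the sorted cells, -0.61, and the highest of the overexpression, 0.95. Psmb5, the chymotrypsin-like protease and main target of proteasome inhibitors, measured 218 and 167 FPKM in the sorted cells (-0.39), and 132 and 209 FPKM in the overexpression (0.65). Psmb7, the trypsin-like protease, was nearly level in the sorted cells, at 144 and 143 FPKM (-0.01), and measured 170 and 302 FPKM in the overexpression (0.82).

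The other beta subunits are not catalytic. Psmb4 was the only constitutive beta subunit above 0 in the sorted cells, at 356 and 373 FPKM (0.07, but -0.10 under quantile normalization). It measured 203 and 382 FPKM in the overexpression (0.91). Psmb3 measured 938 and 858 FPKM in the sorted cells (-0.13), and 342 and 649 FPKM in the overexpression (0.92). Psmb1 measured 587 and 523 FPKM in the sorted cells (-0.17), and 203.5 and 319 FPKM in the overexpression (0.65). Psmb2 had the smallest of the group's differences in the overexpression, 0.54, from 215 to 314 FPKM, and was nearly level in the sorted cells, at 474 and 463 FPKM (-0.03).

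Although the 14 constitutive 20S subunits enter the core in equal numbers, their FPKM were uneven. The highest exceeded the lowest 15.9-fold in KLF3-GFP-negative and 10.5-fold in KLF3-GFP-positive cells, both after Smart-seq2, and 2.83-fold in GFP-OE-72h and 3.87-fold in KLF3-OE-72h cells after poly(A) sequencing. The kit and the cells differ between the experiments, and their parts in this spread cannot be told apart.

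The immunoproteasome subunits replace the catalytic ones. Psmb10, the counterpart of Psmb7 (mm10, chr8:105935727-105938392), went from 104 FPKM without to 45.0 FPKM with KLF3-GFP, a difference of -1.19, and 11.5 FPKM in GFP-OE-72h and 40.7 FPKM in KLF3-OE-72h cells, a difference of 1.73. Its difference was the highest of all members in the overexpression and its direction was opposite in the experiments. It stayed more than 2-fold higher in the overexpression under every scaling, at 1.31 under equal sums, 1.84 under quantile normalization and 1.28 with the trend on span removed. As a share of Psmb7 it went from 72.2% to 31.5% in the sorted cells and from 6.78% to 13.5% in the overexpression. Psmb7 had the lowest FPKM of the 14 constitutive 20S subunits in both sorted groups, at 144 FPKM without KLF3-GFP beside a median of 415 FPKM. The kits differ too, so the sorted shares cannot be set against those of the overexpression.

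Psmb9, the counterpart of Psmb6, was far lower, at 12.1 and 7.61 FPKM in KLF3-GFP-negative and KLF3-GFP-positive cells (-0.60) and 1.83 and 5.31 FPKM in GFP-OE-72h and KLF3-OE-72h cells (1.16, and 0.83 under equal sums). It amounted to 0.527% and 0.507% of Psmb6 in the sorted cells and 0.507% and 0.762% in the overexpression. Its locus overlaps that of Tap1, a peptide transporter, which measured 0.45 and 3.72 FPKM in the sorted cells and 1.25 and 2.53 FPKM in the overexpression, so how reads were divided between the genes was not tested. Psmb8, the counterpart of Psmb5, was below 1 FPKM in all conditions, at 0.29 and 0.40 FPKM in the sorted cells and 0.44 and 0.60 FPKM in the overexpression. Psmb11, known from the thymus, was listed for the sorted cells at 0.58 and 0.18 FPKM. Among the immune cell markers, the leukocyte gene Ptprc was in neither table, and Cd74, the invariant chain of antigen presentation, measured 2.75 and 0.69 FPKM in the sorted cells and 3.60 and 11.7 FPKM in the overexpression. The T cell gene Cd3e was listed for the overexpression at 0.81 and 1.42 FPKM and the myeloid gene Itgam at 0.39 and 0.10 FPKM.

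**Figure D4:**
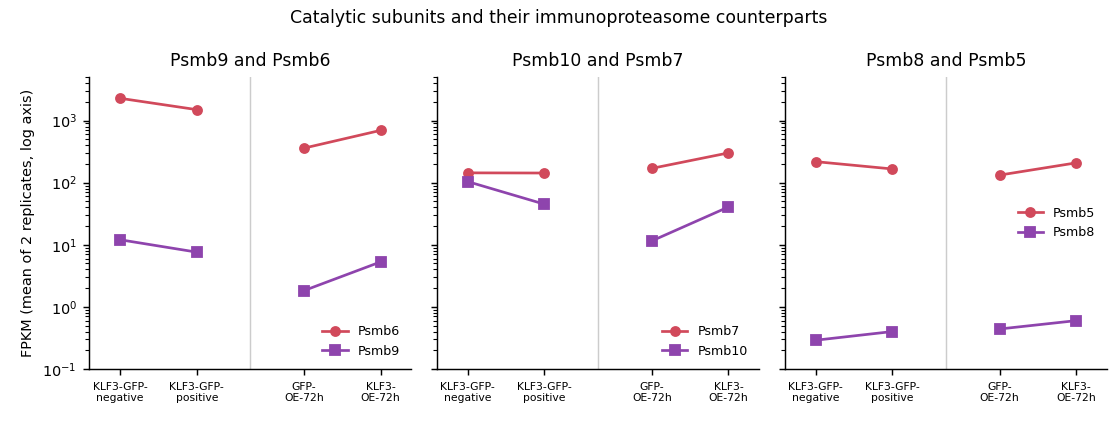
FPKM (log axis, authors' mean of 2 replicates) of the constitutive catalytic subunits (circles) and their immunoproteasome counterparts (squares) in the 4 conditions, with the experiments separated by a grey line. Psmb10 lies near Psmb7 in KLF3-GFP-negative cells, at 72.2% of it, and at 6.78% of it in GFP-OE-72h cells, while Psmb8 stays below 1 FPKM. Psmb7 was the lowest of the 14 constitutive 20S subunits in the sorted cells, and the kits differ between the experiments.

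The 19S ATPases, Psmc1 to Psmc6, form the ring that unfolds the substrate. Among the sorted cells 5 of 6 were below 0, beside 48.1% of all genes, with a median of -0.34. None was past 1.5-fold there, where 24.3% of all genes were higher and 18.1% lower by more than that. In the overexpression 5 of 6 were above 0 as deposited, beside 40.5% of all genes and 75.5% of those in the top 10% of level, where all 6 lay. Their median of 0.32 became -0.02 under quantile normalization and -0.12 under equal sums. Psmc4 had the highest difference of the group there, 0.94 from 170 to 326 FPKM, and stayed above 0 under each scaling (0.49 under equal sums). Psmc4 measured 449 and 368 FPKM in the sorted cells (-0.29). Psmc6 had the group's lowest difference in the overexpression, -0.15 from 121 to 109 FPKM, but 0.06 under median-ratio scaling, and it measured 148 and 113 FPKM in the sorted cells (-0.38). The sorted extremes were Psmc5, from 181 to 128 FPKM (-0.49), and Psmc3, from 134 to 137 FPKM (0.04, but below 0 under median-ratio scaling, quantile normalization and equal sums). In the overexpression Psmc5 measured 145 and 207 FPKM (0.51) and Psmc3 measured 191 and 222 FPKM (0.22, but -0.23 under equal sums).

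The 11 non-ATPase subunits of the 19S hold the ubiquitin receptors, the deubiquitinase and the scaffold of the lid. The sorted cells had 8 of them below 0, beside 48.1% of all genes, with a median of -0.35. In the overexpression 10 were above 0 as deposited, beside 40.5% of all genes and 75.5% of those in the top 10% of level. Their median there, 0.25, was -0.003 under quantile normalization and -0.19 under equal sums. Psmd4, a ubiquitin receptor (mm10, chr3:95032693-95042614), stood far from the others in the overexpression, at 191 FPKM in GFP-OE-72h and 489 FPKM in KLF3-OE-72h cells, a difference of 1.35 that was 0.91 under equal sums and 0.89 under quantile normalization. The direction was the opposite in the sorted cells, from 400 to 278 FPKM (-0.52).

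Psmd1, a large scaffold subunit of the base, was lower in both experiments, at 154 and 84.5 FPKM in the sorted cells (-0.86) and 89.2 and 69.6 FPKM in the overexpression (-0.35, but 0.13 with the trend on span removed). Its locus overlaps that of Gm21972, a predicted gene, which measured 5.59 and 7.16 FPKM in the sorted cells and 0.36 and 40.2 FPKM in the overexpression, the highest difference of all genes there (4.92). Because reads in the shared stretch can be counted for either gene, the level of Psmd1 is uncertain. Psmd12, a lid subunit, measured 200 and 119 FPKM in the sorted cells (-0.74), and 120 and 153 FPKM in the overexpression (0.35, but -0.09 under equal sums). Psmd3, also of the lid, was nearly level in the sorted cells, at 31.6 and 30.7 FPKM (-0.04), and measured 80.5 and 128 FPKM in the overexpression (0.66). Psmd6 had the group's highest sorted difference, 0.11 from 116 to 125 FPKM, which was -0.03 under quantile normalization, and measured 63.6 and 95.4 FPKM in the overexpression (0.58). Psmd14, the deubiquitinase, measured 122 and 128 FPKM in the sorted cells (0.07, but -0.09 under quantile normalization) and 84.4 and 109 FPKM in the overexpression (0.36, but -0.08 under equal sums).

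Among the activators, the PA28 alpha and beta subunits Psme1 and Psme2 moved side by side. Psme1 measured 71.99 and 51.0 FPKM in the sorted cells (-0.49), and 80.6 and 127 FPKM in the overexpression (0.65). Psme2 measured 143 and 104 FPKM in the sorted cells (-0.45), and 48.1 and 90.01 FPKM in the overexpression (0.89). Both stayed above 0 in the overexpression under each scaling. Psme2b, listed at 1.25 and 1.12 FPKM and at 5.04 and 6.61 FPKM, is a near-identical copy of Psme2, so reads could be split between them.

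The other activators did not share this pattern. Psme3, the nuclear PA28 gamma, measured 19.8 and 17.9 FPKM in the sorted cells (-0.14), and 65.9 and 54.5 FPKM in the overexpression (-0.27). Psme4, or PA200, was the group's highest in the sorted cells, at 3.44 and 4.66 FPKM (0.35), and its lowest in the overexpression, at 27.7 and 22.2 FPKM (-0.31, but 0.16 with the trend on span removed). It was the only member above 0 in the sorted cells and below 0 in the overexpression. Psmf1, the proteasome inhibitor PI31, measured 11.0 and 12.6 FPKM in the sorted cells (0.18), and 18.6 and 19.1 FPKM in the overexpression (0.03, but -0.39 under equal sums). The group median was -0.11 in the sorted cells and 0.18 in the overexpression, and -0.22 there under equal sums.

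The assembly factors had the second lowest group median of the proteasome proper in the sorted cells, -0.48, after the immunoproteasome. There 6 of 7 were below 0, beside 48.1% of all genes. In the overexpression 6 of 7 were above 0 as deposited, beside 40.5% of all genes, with a median of 0.55, or 0.11 under equal sums. Psmg1 to Psmg4 chaperone the 20S alpha ring. Psmg4 measured 299 FPKM without and 141 FPKM with KLF3-GFP, a difference of -1.07, and 40.4 and 59.6 FPKM in the overexpression (0.55). Psmg1 measured 185 and 109 FPKM in the sorted cells (-0.76), and 65.1 and 104 FPKM in the overexpression (0.66). Psmg3 was close to level in the sorted cells, at 40.5 and 37.3 FPKM (-0.12), and measured 27.7 and 59.9 FPKM in the overexpression, the group's highest difference there (1.09, and 0.65 under equal sums).

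Psmd5, Psmd9 and Psmd10 chaperone the 19S ATPase ring. Psmd5 measured 43.4 and 21.8 FPKM in the sorted cells (-0.96), and was nearly level in the overexpression, at 58.9 and 58.1 FPKM (-0.02, but 0.19 under median-ratio scaling). Psmd9 was the only member higher by more than 1.5-fold in the sorted cells, at 42.9 and 65.0 FPKM (0.59), and measured 16.8 and 21.7 FPKM in the overexpression (0.35, but -0.07 under equal sums). Its sorted difference was within 1.5-fold under median-ratio scaling, quantile normalization and equal sums. Psmc3ip, the recombination cofactor, measured 60.5 and 25.4 FPKM in the sorted cells (-1.22), and 46.7 and 40.6 FPKM in the overexpression (-0.20, but 0.01 under median-ratio scaling).

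Side by side, 34 of the 48 members tested in both experiments were lower in KLF3-GFP-positive and higher in KLF3-OE-72h cells as deposited, or 70.8%, where 21.3% of the 8887 genes tested in both were. Under equal sums these shares were 45.8% and 11.9%, and among genes that averaged 50 FPKM or more in both tables, 78.8% of 33 members and 45.9% of 1282 genes. The remaining members were higher in both experiments for 7, lower in both for 6 and, for Psme4, higher and then lower. Between the sorted and the overexpression differences of the 48 members Pearson's r was 0.05 and Spearman's rho -0.07, a description across genes that share libraries.

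**Figure D5:**
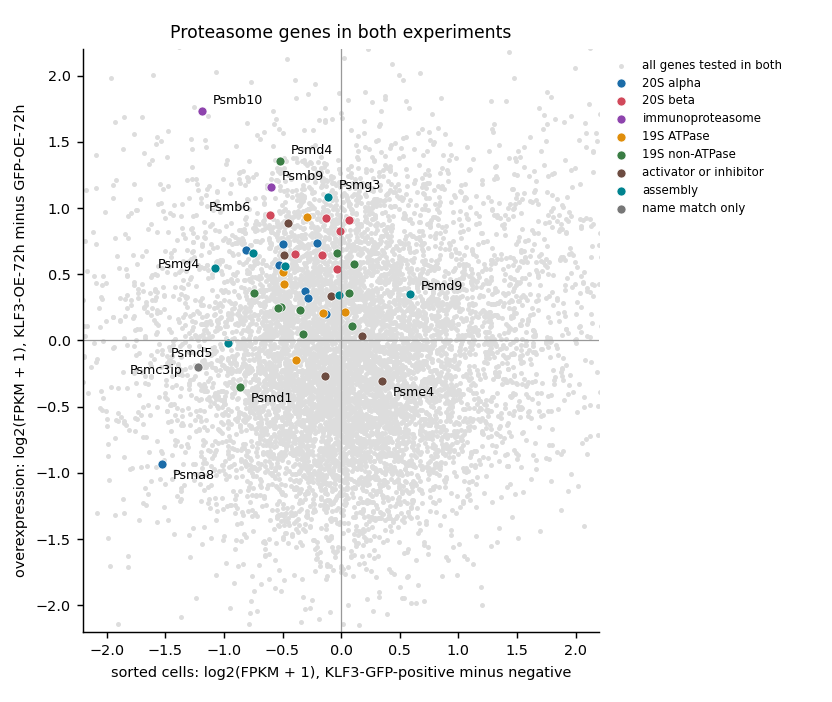
Difference of log2(FPKM + 1) in the overexpression against that in the sorted cells for the 48 proteasome genes tested in both (coloured by group) and the 8887 genes tested in both (grey), of which 331 lie outside the plotted range. The upper left field, lower in KLF3-GFP-positive and higher in KLF3-OE-72h cells, holds 34 of the 48 members, and Psma8, Psmd1, Psmd5 and Psmc3ip are among the 6 at the lower left.

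Of 9 proteasome genes outside the name rule, all tested, 5 were above 0 and 4 below in each experiment, where 51.7% of all genes were above 0 in the sorted cells and 40.5% in the overexpression. Their median was 0.09 in the sorted cells and 0.26 in the overexpression. Adrm1, a ubiquitin receptor of the 19S, measured 232 and 147 FPKM in the sorted cells (-0.65), and 68.4 and 124 FPKM in the overexpression (0.84). Pomp, the maturation factor of the 20S, measured 461 and 409 FPKM in the sorted cells (-0.17), and 132 and 157 FPKM in the overexpression (0.26). Largest in absolute size were Akirin2, which takes part in nuclear import of proteasomes, at 8.06 and 15.1 FPKM in the sorted cells (0.83), and the small 19S subunit Shfm1, also named Sem1, at 53.9 and 131 FPKM in the overexpression (1.26).

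Nfe2l1, also called NRF1 or TCF11, is the transcription factor known to raise proteasome genes when the proteasome is short, after release from the endoplasmic reticulum and processing. As deposited, its transcript had the opposite direction to most members. It measured 23.7 and 38.2 FPKM in KLF3-GFP-negative and KLF3-GFP-positive cells (0.67) and 47.2 and 21.1 FPKM in GFP-OE-72h and KLF3-OE-72h cells (-1.12). Under equal sums 24 members lay above 0 and 24 below in the overexpression. A list around Nfe2l1 held genes of this release and processing together with its relatives Nfe2l2 and Nfe2l3, the small Maf genes and Keap1. Counts over the list are therefore not of that route alone. Nfe2l2, Ddi2, Sel1l, Mafg and Maff also had the direction of Nfe2l1 in each experiment, whereas Vcp, Syvn1, Keap1 and Ngly1 did not. Of the 10 listed genes tested in the sorted cells, 9 were above 0 (median 0.58), beside 51.7% of all genes. These genes were led by Sel1l of the endoplasmic reticulum degradation complex, at 3.13 and 9.97 FPKM (1.41). In the overexpression 7 of 11 were below 0 (median -0.31), a share near the 59.4% of all genes, with Nfe2l1 the lowest.

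The substrate side varied by gene. Ubb, a polyubiquitin gene, was lower in both experiments, at 1381 and 856 FPKM (-0.69) and 841 and 502 FPKM (-0.74). Among 10 shuttle genes, which carry substrates to the proteasome, the medians were 0.30 and -0.14, and the largest differences were those of Ubqln2, at 0.78 and 6.48 FPKM in the sorted cells (2.07), and Rad23b, at 139 and 59.0 FPKM in the overexpression (-1.22). Antigen presentation genes, which take up proteasome products, were all above 0 in the sorted cells (5 of 5 tested, median 1.70), beside 51.7% of all genes. In the overexpression 5 of 7 were above 0 (median 0.11), beside 40.5% of all genes. B2m, the light chain of MHC class I, led both, at 14.7 and 183 FPKM in the sorted cells (3.55) and 17.7 and 58.6 FPKM in the overexpression (1.67), whereas Psmb9 and Psmb10 were lower in KLF3-GFP-positive cells.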

How the data were processed

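The authors deposited 2 tables of FPKM, with 1 column per condition that is the mean of 2 replicates, rounded, restricted to protein-coding genes, with no value under 0.1. Per the submitters' processing notes, reads were aligned to mm10 with STAR (version 2.6.0) and FPKM computed with Cufflinks (version 2.2.1). The samples were grouped by their titles. From the tables, differences of log2(FPKM + 1) were computed within each table for genes whose columns averaged 1 FPKM or more, with limits of 2-fold and 1.5-fold. A gene listed at several loci, as Psmd5 was in the sorted cells, was taken at the locus of higher mean level. Since each condition had 1 averaged column, limma and all other tests were left out, and the precision of each value is unknown. The members and gene lists were chosen with earlier results of these data known. Values were given for the catalytic subunits and their counterparts, for the highest and lowest member of each group and experiment, for every member past 1.5-fold, and for the largest difference of each other list, with Nfe2l1, Pomp and Adrm1. Values of Psmd14, Psme2b, Psme3, Psmf1, Ubb, Tap1, Gm21972, Klf3 and the markers lie outside this rule and were chosen after values were seen, and some genes of the lists are not reported here. Alternatives were a pseudocount of 0.1, a floor of 0.1, no minimum, minimums of 5 and 50 FPKM, median-ratio scaling, equal column sums, quantile normalization, removal of a lowess trend (fraction 0.3) on genomic span, and leaving out Psmc3ip or the members that overlap another gene. Equal sums, the minimum of 50 FPKM and both exclusions were chosen after seeing the data. The scripts (Python 3.11.15, pandas 2.3.3, statsmodels 0.14.6) were tested on simulated data.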

Additional observations from a re-analysis of the deposited data

How the results depend on the processing

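In the sorted cells the median of the members was between -0.48 (quantile normalization) and -0.32 (without overlapping members) under 11 settings, and stayed 0.33 to 0.39 below that of all genes. Higher by more than 1.5-fold were 0 members under median-ratio scaling, quantile normalization, removal of the span trend and equal sums, where 20.6% to 23.3% of all genes were, and lower by more than 1.5-fold were 19 of 48 under quantile normalization, beside 23.9% of all genes. With a minimum mean of 50 FPKM, 2 of 36 members were lower by more than 2-fold and 7 by more than 1.5-fold, beside 5.41% and 16.1% of all genes.

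The overexpression depended on the scaling. The median of the members was 0.68 under median-ratio scaling, 0.18 under quantile normalization and 0.028 under equal sums. Higher by more than 2-fold were 10 of 48 members under median-ratio scaling (10.4% of all genes), 1 of 37 with a minimum mean of 50 FPKM (15.7%) and 1, Psmb10, under equal sums (2.38%). Higher by more than 1.5-fold were 6 under quantile normalization (18.2% of all genes) and 4 under equal sums (6.94%). Lower by more than 2-fold was 1 member, Psma8, with a pseudocount of 0.1 FPKM (16.3% of all genes), with a floor of 0.1 FPKM (17.1%) and under equal sums (25.1%). Lower by more than 1.5-fold were 6 under equal sums (48.6% of all genes) and 0 both with the span trend removed (16.4%) and with the minimum of 50 FPKM (9.93%). Above 0 were 24 under equal sums (22.5% of all genes). The medians of 3 groups and of Psmc3ip changed sign: the 19S ATPases to -0.019 under quantile normalization and -0.12 under equal sums, the 19S non-ATPases to -0.003 and -0.19, the activators and inhibitor to -0.22 under equal sums, and Psmc3ip to 0.0073 under median-ratio scaling. The members stayed 0.18 to 0.73 above all genes, least with the minimum of 50 FPKM, where all genes had a median of 0.37. No paired analysis was possible because each condition holds 1 averaged column, so the replicate block and the settings without replicate 1 and without replicate 2 were not run, and neither was limma.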
